A study of Mus musculus with 4 samples.

Results

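The Runx3-bound regions at Cd4, Cd8a, Cd8b1 and Zbtb7b were examined in splenic CD4+ dendritic cells (DC). These genes encode the CD4 coreceptor, the CD8 alpha and beta chains and ThPOK, the transcription factor of CD4+ T cells. A peak was counted when its centre lay inside the gene or within 50 kb of it, and 12 of the 15121 deposited peaks met this rule. Of these, 5 lay at Cd4, 1 at the neighbouring genes Cd8b1 and Cd8a, and 6 at Zbtb7b.

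The study performed ChIP-seq with an in-house polyclonal antibody to Runx3 on CD11chiMHCII+CD4+ DC sorted from spleens of C57BL/6 mice, for which the labels name no genetic change or treatment. There were 2 Runx3 precipitates and 2 controls of fragmented whole cell extract, and the label of the second control reads C57BL/7. Each collection came from about 15 pooled mice, and 30000000 CD11c-positive cells entered the sort. The authors called peaks once, for both precipitates against both controls, so each peak has a single score, and no value below has a replicate error. The score is the number that MACS2 wrote, in a unit that is not stated, and was used only to order peaks within the list. It ran from 1.33 to 309.3 with a median of 12.1 and an upper quartile of 23.2. Reads of each library were not analysed here, and where no peak is listed, binding too weak to be called at the depth of these libraries is possible. The list comes from a population of sorted cells, so strong binding in few cells and weak binding in many cannot be told apart.

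In the T cell lineage these loci are classical RUNX targets. Runx3 and its partner Cbfb repress Cd4 through a silencer in intron 1 of the gene and repress Zbtb7b through a silencer near its upstream promoter, and Runx3 binds enhancers of the Cd8 genes in cytotoxic T cells. ThPOK acts in the opposite direction and holds the CD4+ T cell fate. Splenic CD4+ DC carry CD4 at the surface and lack CD8 alpha, but are not T cells, and the question addressed here is where in these loci Runx3 peaks were called in them. RUNX proteins recognise the hexamer TGTGGT, which reads ACCACA on the other strand.

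The sequences of 3 peaks are shown as examples from the loci, and they need not be typical of the other peaks there. All are mm9, plus strand, from 5′ to 3′, and up to 300 bases around the peak centre, with TGTGGT on either strand in capitals. They are the second strongest peak at Cd4 (chr6:124848286-124848585), the Cd8b1 peak (chr6:71266445-71266744), and the peak at the Zbtb7b promoter, shown whole (chr3:89197551-89197823), which holds no hexamer.
Cd4, centre 10197 bp upstream: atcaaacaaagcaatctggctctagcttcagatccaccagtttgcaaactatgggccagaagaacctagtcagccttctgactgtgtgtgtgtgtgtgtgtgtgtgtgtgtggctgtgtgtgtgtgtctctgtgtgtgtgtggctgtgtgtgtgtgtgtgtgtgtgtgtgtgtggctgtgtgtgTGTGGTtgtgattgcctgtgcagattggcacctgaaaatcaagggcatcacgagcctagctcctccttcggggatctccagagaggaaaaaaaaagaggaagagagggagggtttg
Cd8b1, centre 6235 bp upstream: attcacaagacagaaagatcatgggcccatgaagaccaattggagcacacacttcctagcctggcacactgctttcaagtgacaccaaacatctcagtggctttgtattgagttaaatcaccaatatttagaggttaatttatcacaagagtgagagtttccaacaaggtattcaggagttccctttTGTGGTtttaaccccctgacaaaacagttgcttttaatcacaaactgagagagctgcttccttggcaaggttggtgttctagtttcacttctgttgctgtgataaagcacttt
Zbtb7b, centre 87 bp upstream of a coding transcript: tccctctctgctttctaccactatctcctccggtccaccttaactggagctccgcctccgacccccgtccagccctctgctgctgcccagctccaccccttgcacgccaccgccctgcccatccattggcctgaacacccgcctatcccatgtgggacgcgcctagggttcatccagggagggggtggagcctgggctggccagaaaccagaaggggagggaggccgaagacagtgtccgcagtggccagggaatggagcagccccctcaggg

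At Cd4, Runx3 peaks were called upstream of the gene and in a downstream neighbour, but none in the gene itself. Cd4 (ENSMUSG00000023274.7) lies on chromosome 6 from 124814710 to 124838239 on the minus strand, next to Lag3, the gene of an inhibitory receptor that like CD4 binds MHC-II. The interval of 16139 bp between the Cd4 start and the 3′ end of Lag3 held 4 peaks, whose centres were spread over 9480 bp. Of all peaks in the list, 4.83% had at least 3 other peak centres within 10 kb, as each of these had.

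The strongest of these peaks was centred 13001 bp upstream of the transcription start site (TSS) of Cd4 and scored 90.65. It ranked 216 in the list, where 98.5% of the peaks scored lower. Of the 22367 protein-coding genes, 2.63% had a peak scoring this high within the same distance of the gene. The next peak, from 124848097 to 124848774, was centred 10197 bp upstream and scored 53.66, above 93.9% of the list. Both were wide, with 615 bp and 678 bp against a list median of 406 bp.

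The other upstream peaks were weaker and stood on either side of these. The peak nearest to the gene, from 124844032 to 124844577 and centred 6066 bp upstream, scored 9.16 and ranked 9422. The farthest, from 124853623 to 124853947, was centred 15546 bp upstream and 594 bp beyond the 3′ end of Lag3. It scored 2.67, and 0.655% of the list scored lower. Thus the strong peaks lay in the middle of the group and the weak ones at its edges, with 4131, 2804 and 2545 bp between neighbouring centres. A proximal enhancer of Cd4 is known upstream of the gene in thymocytes, but its borders were not in the files used here, and no peak was assigned to it.

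No peak centre lay in the Cd4 gene body of 23530 bp, and the same held for 76.8% of protein-coding genes. A gene with peaks in the window but none in the body, like Cd4 and Cd8b1, was found in 39.4% of cases. Intron 1, from 124829712 to 124838097, the intron that houses the silencer in T cells, contained 8 copies of TGTGGT but no peak. In the whole gene body 19 copies were present, 0 of them under a peak. In the genome 0.62% of all copies lay under a peak, so copies outside peaks are the rule. Among genes of 10 to 30 kb with at least 5 peaks in the window, 46.6% had none in the body, so this arrangement is common in the list. The gene lay in a stretch of 76200 bp without a peak centre, and 72.2% of protein-coding genes lay in one as long or longer.

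The fifth peak counted at Cd4, from 124767912 to 124768297, lay 70134 bp downstream of the Cd4 TSS and inside another gene. It was centred in intron 15 of Usp5, which encodes a ubiquitin-specific protease, 194 bp upstream of the TSS of a shorter Usp5 transcript. It scored 15.73, near the middle of the list. By the nearest TSS, 2 of the 5 peaks belonged to Cd4, those 6066 and 10197 bp upstream. The nearest annotated start of the strongest peak and of the farthest was one of Lag3, at 8829 and 6284 bp, so the files do not tell whether these peaks belong to Cd4 or to Lag3.

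**Figure D1:**
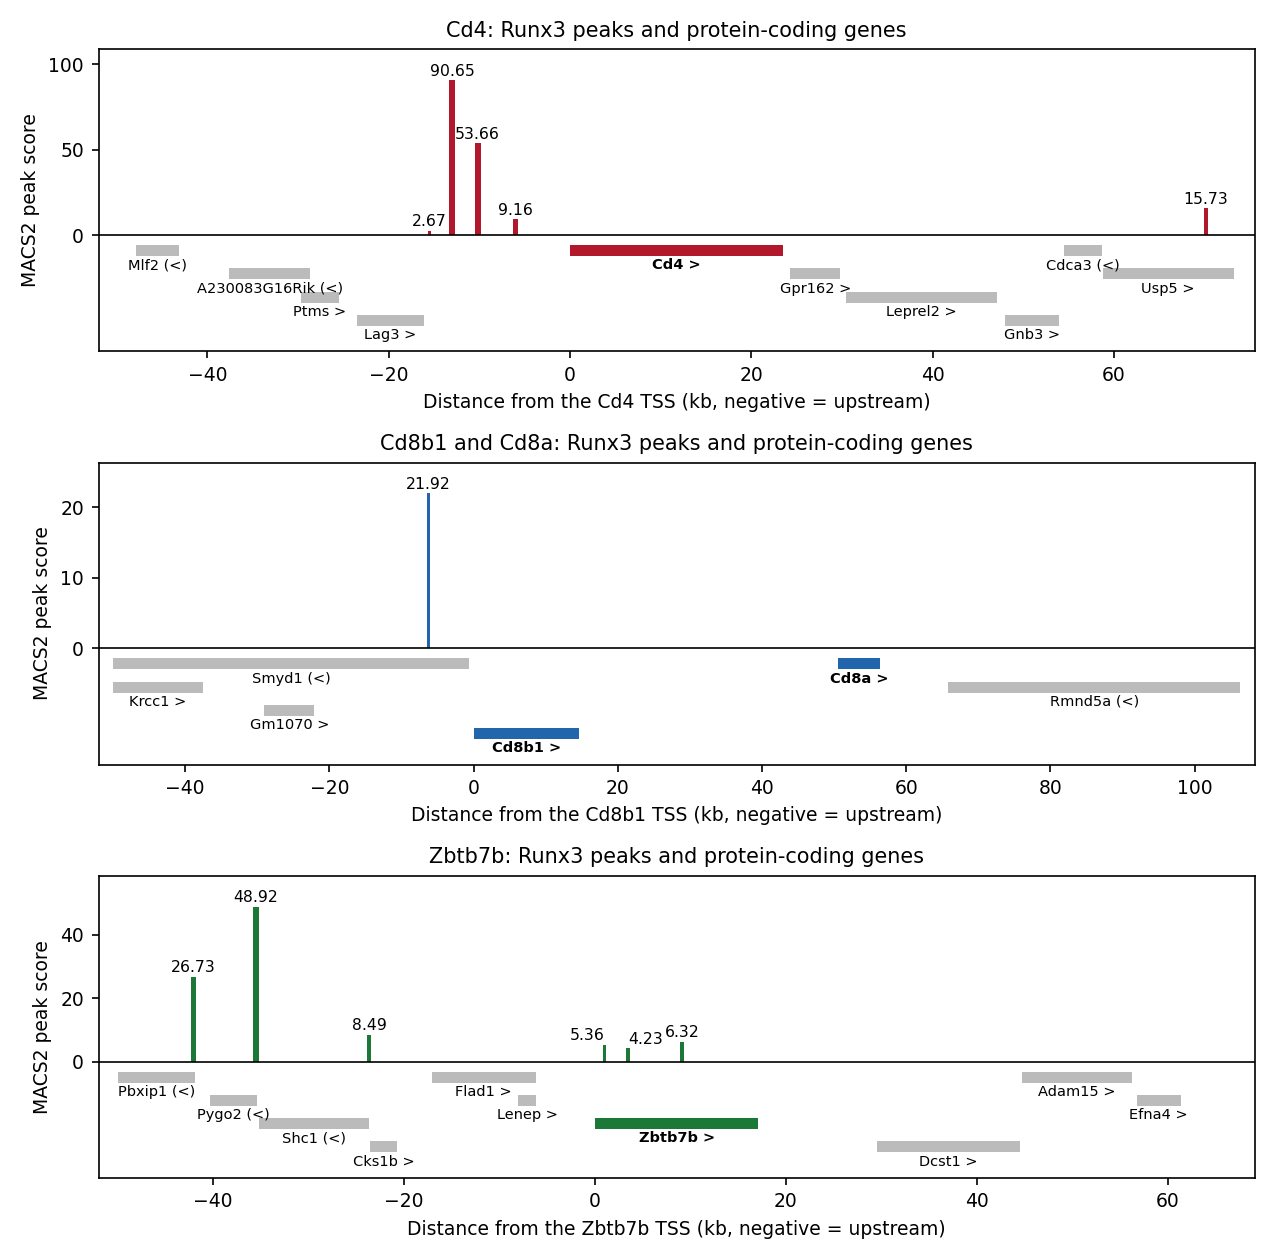
Runx3 peaks at Cd4 (top), at Cd8b1 and Cd8a (middle) and at Zbtb7b (bottom). The x axis gives the distance in kb from the TSS of Cd4, Cd8b1 or Zbtb7b, turned so that each of these genes reads to the right, and the height of each bar is the MACS2 peak score on a linear axis that differs between panels. Boxes below the axis are protein-coding genes, cut at the window's edge, with the named genes in colour, a > for genes on the same strand and (<) for those on the other. The 4 upstream peaks of Cd4 score between 2.67 and 90.65, the single peak at the Cd8 genes scores 21.92, and the 3 peaks inside Zbtb7b score between 4.23 and 6.32.

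Within 50 kb of the Cd8 genes 1 Runx3 peak was called, at Cd8b1, and the median protein-coding gene also had 1. Cd8b1 (ENSMUSG00000053044.7, 71272830 to 71287471) and Cd8a (ENSMUSG00000053977.7, 71323421 to 71329165) lie on chromosome 6 on the plus strand, and share most of their windows. The only peak, from 71266376 to 71266813, was centred 6235 bp upstream of the Cd8b1 TSS, in intron 1 of Smyd1, a gene of a histone methyltransferase of muscle. It scored 21.92, above 73.2% of the list but below its upper quartile, and the nearest start was that of Smyd1, at 5605 bp. No peak centre lay in either gene body or in the 35949 bp between them. Several T cell enhancers of the Cd8 genes are known to lie between them, and TGTGGT occurred there 30 times. In the genome 0.62% of the copies lay under a peak, so copies without one are common.

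Cd8a had no peak within 50 kb, and 37.4% of protein-coding genes shared this. Its nearest peak was the one upstream of Cd8b1, 56826 bp from its TSS. Both genes lay in a stretch of 121665 bp without a peak centre, but 62.4% of protein-coding genes lay in one as long or longer. Exactly 1 peak, as at Cd8b1, was found for 18.2% of genes.

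At Zbtb7b (ENSMUSG00000028042.8, chromosome 3, 89181566 to 89198698, minus strand) all peaks close to the gene were weak. The annotation gives it 10 TSS, the outermost of a noncoding transcript, and 3 peaks were centred in the gene. As many or more were found in 2.96% of protein-coding genes, and at least 1 in 23.2%. The peak from 89197551 to 89197823 was centred 87 bp upstream of the outermost coding TSS, scored 5.36 and was the narrowest of the 12, with 273 bp. The peak from 89195089 to 89195409 scored 4.23 and lay 742 bp inside another coding transcript and 523 bp from the start of Gm15417, a noncoding gene on the other strand. The peak from 89189351 to 89189786, in intron 1 of the longest coding transcript and 1542 bp downstream of the TSS of the shortest one, scored 6.32. Between 5.48% and 19.1% of the list scored lower than these peaks, so all of them ranked far below the median.

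The other peaks counted at Zbtb7b lay upstream, at the promoters of other genes. The peak from 89222123 to 89222584 covered the divergent starts of Shc1, an adaptor of growth factor receptors, and Cks1b, a subunit of cyclin-dependent kinases, at 11 and 49 bp. It scored 8.49. The peak from 89233918 to 89234541 was centred in exon 1 of Pygo2, a coactivator of Wnt signalling, 35532 bp upstream of Zbtb7b, and scored 48.92, above 92.6% of the list. The peak from 89240503 to 89241003, in intron 1 of Pbxip1 and 75 bp from a TSS, scored 26.73. Each of these scored higher than every peak inside Zbtb7b.

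Counts per gene must be read against the list, in which peaks near genes are frequent. A peak within the window was present for 3 of the 4 genes, against 62.6% of protein-coding genes (61.9% to 63.2%, a Wilson 95% interval that reflects counting error alone). At least 5 peaks, as at Cd4, were found for 11.7% of genes and at least 6, as at Zbtb7b, for 7.31%. The 12 peaks had a median score of 12.4 against 12.1 for the list, and 6 of them scored at or above the list median. The median fell to 6.32 for the 5 peaks within 10 kb of the genes and to 5.36 for the 3 centred in a gene, all of them in Zbtb7b. Scores ran from 2.67 to 90.65 at Cd4 and from 4.23 to 48.92 at Zbtb7b, so the range at Zbtb7b lay within that at Cd4. No test was made, since peaks of 1 locus are not replicates.

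**Figure D2:**
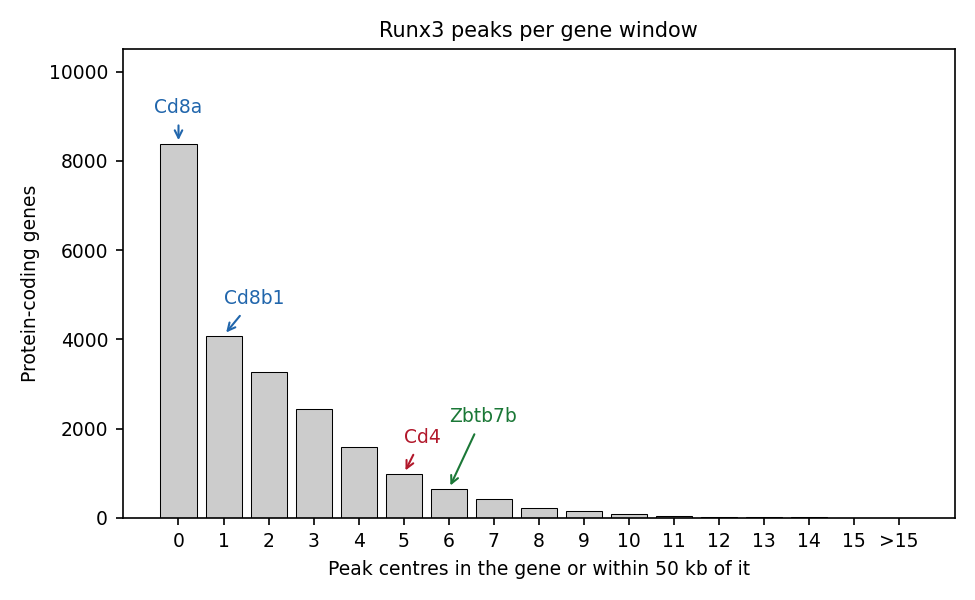
Number of protein-coding genes (y axis) by the number of peak centres in the gene or within 50 kb of it (x axis), with the bars of Cd8a, Cd8b1, Cd4 and Zbtb7b marked. Cd8a stands in the tallest bar, at 0 peaks, and Cd4 and Zbtb7b in the declining part, at 5 and 6 peaks.

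**Figure D3:**
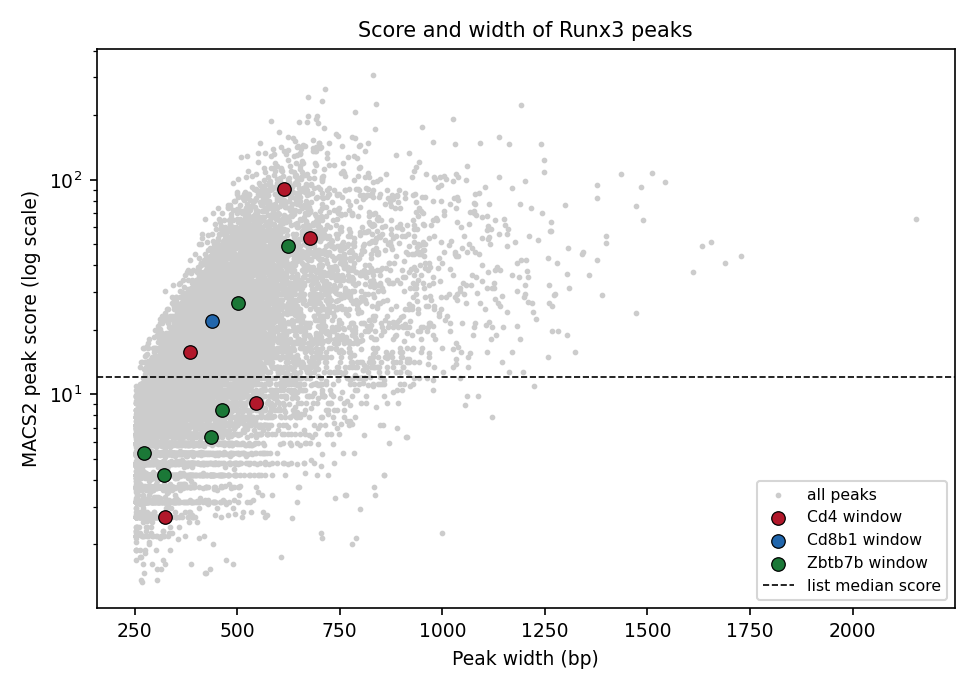
MACS2 peak score (log scale) against peak width in bp for all 15121 peaks (grey) and for the peaks in the windows of Cd4, Cd8b1 and Zbtb7b (coloured). The dashed line is the list median of 12.1, and the strongest Cd4 peak, at 90.65 and 615 bp, is the highest coloured point, while the 3 peaks inside Zbtb7b lie below the line.

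TGTGGT was present in 8 of the 12 peaks, or 66.7% (Wilson 95% interval 39.1% to 86.2%). The share was 54.0% over all peaks and 30.9% over windows of the same width 10 kb downstream. The paper reports a higher share of bound regions with its RUNX motif. It found motifs de novo, and how matches were counted is not given, so the shares are not directly comparable. All 5 peaks at Cd4 held TGTGGT, with 8 copies in all, as did the Cd8b1 peak with 1 copy. At Zbtb7b 2 of the 6 peaks held it, with 1 copy each. These were the peak at Pbxip1 and the peak 9129 bp inside Zbtb7b. Of all copies of TGTGGT in the Cd4 window, 8 of 99 lay under a peak (8.08%, Wilson 95% interval 4.15% to 15.1%), and in the Zbtb7b window 2 of 95 did (2.11%). In the joint window of Cd8a and Cd8b1 1 of 136 did (0.735%). In the genome 0.62% of the copies lay under a peak, but the genome includes stretches far from genes. The share in the windows of other genes was not computed, and it depends on how many peaks a window holds. Copies in the same peak are called together, and 3 of the 8 at Cd4 lay in the Usp5 peak. The interval at Cd4 treats copies as independent and is therefore too narrow. The promoters of the 4 genes, from 250 bases before to 50 bases after the outermost start, held 0 copies, and 15.3% of protein-coding promoters held at least 1.

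TGTGGT under these peaks is given for 10 of the 11 copies with 12 bases on either side, on the strand where it reads TGTGGT, so that the flanks can be compared. The Usp5 peak held 3 copies, 2 of them starting 15 bp apart, and 5.03% of all peaks held as many or more. At least 2 copies, as also in the peak 10197 bp upstream of Cd4, were present in 18.5% of all peaks.
Cd4, 15546 bp upstream (chr6:124853918-124853947): agcccgcgagcgTGTGGTgtgtgtgtgtgt
Cd4, 10197 bp upstream (chr6:124848458-124848487): tggctgtgtgtgTGTGGTtgtgattgcctg
Cd4, 10197 bp upstream (chr6:124848572-124848601): agagggagggttTGTGGTgagcagatggta
Cd4, 6066 bp upstream (chr6:124844297-124844326): ccccaatttgttTGTGGTcatgatgtttgt
Usp5 (chr6:124768039-124768068): cagcatgggtgcTGTGGTagaattagtgca
Usp5 (chr6:124768152-124768181, minus strand): ggttattttagtTGTGGTgtgaaagagaaa
Usp5 (chr6:124768167-124768196, minus strand): tcccattttgcgTGTGGTtattttagttgt
Cd8b1, 6235 bp upstream (chr6:71266620-71266649): ggagttccctttTGTGGTtttaaccccctg
Zbtb7b, 9129 bp inside (chr3:89189718-89189747, minus strand): caaggggccagcTGTGGTgtccctcagtct
Pbxip1 (chr3:89240874-89240903): caggcaagttttTGTGGTcccaggtccttc

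In 3 of the 12 peaks a T followed the hexamer, giving TGTGGTT, a form present in 27.7% of all peaks. These were the peak 10197 bp upstream of Cd4, the Usp5 peak and the Cd8b1 peak. The distance of the hexamer from the peak centre was 7 bp in the Cd4 peak nearest to the gene and 40 bp in the Cd8b1 peak, but 102 bp in the strongest Cd4 peak and 148 bp in the farthest, where it stood near the edge. TGTGGT was found in the central 200 bp of 4 of the 12 peaks and of 41.8% of all peaks. The files give no summit, so the centre need not be the point of strongest binding. The variant TGCGGT was present in the Pygo2 peak and the peak 9129 bp inside Zbtb7b, and in 20.1% of all peaks. The Pygo2, Shc1 and both further peaks inside Zbtb7b were without TGTGGT, and of these the Pygo2 peak held the variant.

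**Figure D4:**
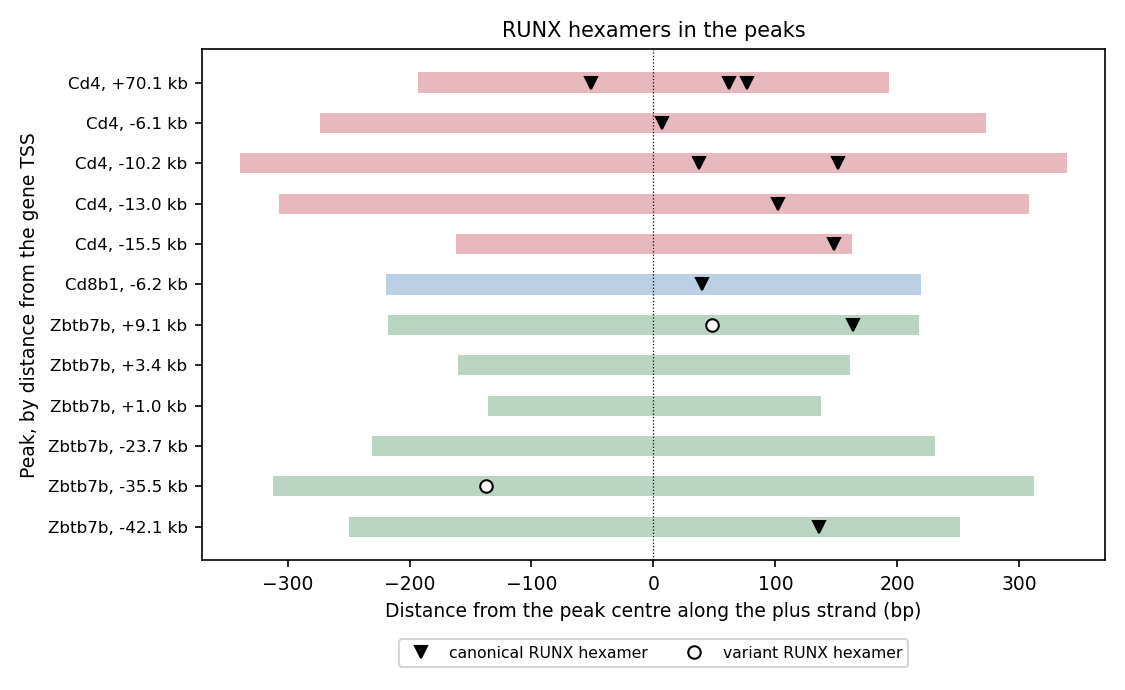
Positions of RUNX hexamers in the 12 peaks, each drawn as a bar to scale around its centre (x axis, bp along the plus strand) and named by its distance from the TSS of Cd4, Cd8b1 or Zbtb7b. Filled triangles are TGTGGT and open circles TGCGGT on either strand, and all 5 Cd4 bars carry a triangle while 4 of the 6 Zbtb7b bars carry none.

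Motifs of other factors were searched on both strands in the same peaks. TGACGT, the element of the DC factor zDC, was found in 1 peak, the weakest at Cd4, and in 11.0% of all peaks. GAGGAA, the core bound by the myeloid ETS factor PU.1, was present in 5 of the 12 and in 53.6% of all peaks, namely the 3 Cd4 peaks nearest to the gene, the Usp5 peak and the peak with the score of 4.23 inside Zbtb7b. The AP-1 element TGANTCA was found in the Cd8b1 peak and in 13.2% of all peaks. The composite element of ETS and IRF factors was found in the Cd4 peak 6066 bp upstream and in 7.81% of all peaks. Matches are letters in a window and were not tested as sites. The peaks at Zbtb7b were richer in G and C, with 53.3% to 67.9%, than those at Cd4 and Cd8b1, with 44.1% to 56.3%, and the list median was 50.7%.

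Of the 12 peaks 6 lay within 1 kb of an annotated TSS, against 38.0% of the list. Of these, 5 were in the Zbtb7b window and 1 was the Usp5 peak. Within 1 kb of a start of the named gene itself lay 2 peaks, both at Zbtb7b. The 50 kb limit separated distant peaks only. The farthest peak inside it was 46605 bp from Cd4 with a score of 15.73, and the nearest outside it was 51230 bp from Cd8b1, at the Krcc1 promoter, with a score of 16.53.

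Genes that act with these loci in T cells were bound to different extents. Of 17 regulators of the choice between CD4 and CD8 lineages 14 had a peak within the window and 11 in the gene body, against 62.6% and 23.2% of protein-coding genes. Gene length was not matched, and a longer gene has more bases in which a peak can be centred. The most peaks were at Runx3 itself with 12, Runx1 with 11 and Zbtb7a, a paralog of Zbtb7b, with 8. The highest scores were 156.11 at Runx1, 150.59 at Runx3 and 86.69 at Ikzf1, which encodes Ikaros. Those at Runx1 and Ikzf1 were in the gene body, but inside Runx3 the highest score was 24.06. Bcl11b, Myb and Ets1 had no peak within 50 kb. The highest score at Cd4 stood below those of Runx1 and Runx3 and above that of Ikzf1.

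Of 7 effector genes tied to Runx3 in T cells, 5 had a peak in the window and 1, Itgae, in the gene body, against the same 62.6% and 23.2% of protein-coding genes. The highest scores were 64.45 at Tbx21, the gene of T-bet, 48.33 at Itgae, the gene of the integrin CD103, and 35.17 at Ifng. The peak in the body of Itgae scored 5.96, so that of 48.33 lay outside the gene. Itgae had 4 peaks, Ifng and Tbx21 2 each, and Gzmb and Eomes none. All 8 genes of the T cell receptor complex and its signalling had a peak in the window, and 2 had one in the body, Cd3d and Lck, against 62.6% and 23.2% of protein-coding genes. For the body this share is near that of all genes. The neighbours Cd3d, Cd3e and Cd3g shared a peak that scored 99.56, above the strongest peak at Cd4, and Lat had 3 peaks. The 8 genes are thus not 8 separate loci, and the shared peak enters their count more than once. The list of bound regions gives no RNA, so T cell transcripts in the sorted cells could not be measured, and whether other sorted cells contributed to the Cd4 peaks was not tested.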

How the data were processed

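Runx3 ChIP-seq was measured in 2 precipitates and 2 whole cell extract controls, which were grouped by their titles. The authors sonicated chromatin fixed in 1% formaldehyde to fragments of about 300 bp, mapped the 50 bp reads with bowtie to mm9, keeping unique alignments, and ran MACS2 to find bound regions. The submitters' processing notes name CASAVA 1.8, and the versions of bowtie and MACS2, the threshold and the treatment of duplicate reads are not given in the sources used here. The deposited file holds 1 list of peaks for the pooled samples, with start, end and a MACS2 score of unstated unit. Depth per sample and reads per peak were not analysed here, and unique alignment leaves out repeated sequence.

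Coordinates are 1-based on mm9. Bases were read from NCBIM37, which is this assembly and within whose chromosomes all peaks lay, and genes from GENCODE M1 without the mitochondrial ones (37273 genes). Peaks were placed by their centre, and exons and introns were numbered in the coding transcript with the longest span. Motifs were matched on both strands, overlaps included, and control windows that met a peak or unsequenced bases were left out, which left 14801. TGTGGTT and TGTGGT overlap.

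The genes, lists and alternatives were chosen with earlier results of these data known. Named were the 4 genes, the genes that hold a peak of theirs or have the nearest TSS, and from each T cell list the 3 genes with most peaks, the 3 with the highest score and those without a peak. The lists were lineage choice regulators, effector genes, T cell receptor genes and markers of DC, CD11b+ DC and CD8+ DC. Markers of B cells, some T cell receptor genes and some sequences are not reported here. No test was made, because the list has no replicates, and intervals are Wilson 95% intervals. Counting and motif search were tested on simulated data. Python 3.11.15, numpy 2.4.6, scipy 1.17.1 and matplotlib 3.10.9 were used.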

Additional observations from a re-analysis of the deposited data

How the results depend on the processing

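The number of peaks at the 4 loci, 12, did not change when any base of the peak was counted, when peaks closer than 300 bp were joined or when coding transcripts alone set the gene body. It was 5 with a limit of 10 kb, 8 with 20 kb and 21 with 100 kb. It was 6 for scores at or above the list median and 4 at or above the upper quartile. It was 7 with basal plus extension domains modelled on those of GREAT, and 4 when the nearest TSS decided. Noncoding genes also bounded these domains, as Gm15417 did at Zbtb7b, and the Cd8b1 domain reached past the Smyd1 start. They need not equal the domains that GREAT itself draws. At Cd4 the counts were 1 (10 kb), 4 (20 kb), 8 (100 kb), 3 (median), 2 (upper quartile), 4 (domains) and 2 (nearest TSS). At the Cd8 genes they were 5 (100 kb), 0 (upper quartile), 2 (domains) and 0 (nearest TSS). At Zbtb7b they were 3 (10 kb), 3 (20 kb), 8 (100 kb), 2 (median), 2 (upper quartile), 1 (domains) and 2 (nearest TSS). Peaks with TGTGGT were 8 in whole peaks, 4 within the central 200 bp and 3 for TGTGGTT. The median score of 12.4 was 6.32 with 10 kb and 5.36 for peaks centred in one of the genes. The share of genes with a peak, 62.6%, was 53.1% over all annotated genes, 43.4% with 10 kb, 50.4% with 20 kb and 72.1% with 100 kb. The limits and score cuts admit different bases or peaks, while the domain and nearest TSS rules assign peaks to genes in another way. No paired analysis was possible because the file holds 1 list for the pooled samples, and for the same reason no replicate was left out.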

Other observations

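The peak 10197 bp upstream of Cd4 holds an unbroken run of alternating G and T of 30 bp, and a run of 20 bp or longer was present in 2.8% of all peaks. A TGTGGT stands next to alternating G and T in this peak and in the weakest Cd4 peak, where the run is 14 bp long. In the other peaks at these loci the longest such run was 4 to 7 bp.

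Marker genes of spleen cells were counted in the same way. Of all protein-coding genes, 62.6% had a peak in the window, 11.7% had at least 5, and 23.2% had a peak in the body. All 3 markers of conventional DC, Itgax, Flt3 and Zbtb46, had peaks in the window, 7 to 8 each, and all 3 had peaks in the gene body. The 3 markers of CD11b+ DC, Itgam, Irf4 and Sirpa, had 4 to 7 peaks, and all 3 had peaks in the gene body. The highest scores in the body were 6.45 at Itgam, 9.16 at Irf4 and 2.75 at Sirpa, below the list median of 12.1. The 4 markers of CD8+ DC, Xcr1, Clec9a, Batf3 and Irf8, had 1 to 9, and of these only Xcr1 had any in the body. Binding at a gene does not show that the cell expresses it, so these counts describe the loci and name no cell type.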
